A study of Mus musculus with 14 samples.

Results

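The last step of a label retention series was examined, from cells one level below the top to those that kept the most label: 4 arrays of GFP4 against 2 arrays of GFP3, out of 14 arrays in all. The arrays were taken by their titles and not by a measured value. Earlier results of these data were known when the comparison was chosen. Expression was read on Affymetrix arrays in mouse bone marrow cells that lack lineage markers and carry Sca1 and Kit (LSK cells), the compartment of hematopoietic stem cells (HSCs) and multipotent progenitors. All mice were double transgenic on a C57BL/6 background, backcrossed for at least 10 generations, with an H2B-GFP histone reporter behind a tetracycline operator (Tet-O-H2B-GFP) and the tTA activator driven from a human CD34 promoter (hCD34-tTA). All drank doxycycline at 1 mg/ml for 12 weeks from 6 to 8 weeks of age, which shut the label off, and LSK cells were then sorted by how much GFP was left. GFP4 and GFP3 are the highest ranks of 5, from GFP0 upwards, and lie about 1 to 2 divisions apart by the submitters' estimate. The comparison thus has no untreated or unlabelled mice, and the label marks only cells in which the human CD34 promoter was active. The labels call the arrays biological replicates without saying which animals, or how many, lie behind each, so p-values measure only the spread between these sorted samples.

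HSCs are quiescent for most of their life. A histone label that division dilutes is used to mark the cells that have divided least since it was shut off. Entry into a cycle begins with the G1 kinases Cdk4 and Cdk6, which phosphorylate the retinoblastoma protein and free E2F factors to switch on genes for DNA replication, and genes for mitosis follow later under the NF-Y and MuvB complexes. In sorted pools of cells such as these, fewer cells in cycle and less transcript in each cell cannot be told apart.

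Promoters of 3 genes described below are shown here because the S phase and the G2 and M phase genes differ in how many carry each motif. The sequences are the 250 bases before the RefSeq transcription start (GRCm38.p6), 5′ to 3′ on the strand of the gene, and capitals mark each motif found on either strand. Cdca7 (chr2:72475969-72476218, + strand) holds the E2F motif TTTCCCGC, read on the opposite strand, and is in neither cell cycle list. Rrm1 (chr7:102441445-102441694, + strand) holds CCAAT boxes, the motif of NF-Y. Ccnb2 (chr9:70421555-70421804, − strand) holds CCAAT boxes and the cell cycle homology region element (CHR) TTTGAA. The 3 genes were chosen after their values were seen.
Cdca7: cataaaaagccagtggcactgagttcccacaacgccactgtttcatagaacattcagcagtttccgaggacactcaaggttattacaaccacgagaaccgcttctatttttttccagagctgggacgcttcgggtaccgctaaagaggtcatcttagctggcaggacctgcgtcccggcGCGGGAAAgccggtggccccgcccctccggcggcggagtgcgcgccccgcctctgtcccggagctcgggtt
Rrm1: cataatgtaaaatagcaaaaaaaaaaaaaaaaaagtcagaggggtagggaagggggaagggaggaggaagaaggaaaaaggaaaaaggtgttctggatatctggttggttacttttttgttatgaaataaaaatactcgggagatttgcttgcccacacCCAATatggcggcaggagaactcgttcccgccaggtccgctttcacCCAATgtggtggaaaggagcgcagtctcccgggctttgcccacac
Ccnb2: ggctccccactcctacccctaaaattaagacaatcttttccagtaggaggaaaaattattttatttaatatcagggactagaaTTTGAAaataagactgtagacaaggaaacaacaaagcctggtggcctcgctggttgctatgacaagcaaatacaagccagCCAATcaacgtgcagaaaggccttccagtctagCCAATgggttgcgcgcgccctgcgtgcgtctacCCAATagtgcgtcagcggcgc
Over the 14453 genes with a promoter in the table, 39.4% held CCAAT, 15.7% held a CHR (TTTGAA or TTCGAA) and 2.72% held an E2F motif (TTTCCCGC, TTTGGCGC or TTTCGCGC). Of the 26 G2 and M phase genes with a promoter, 21 held CCAAT (80.8%), 11 a CHR (42.3%) and 1 an E2F motif. Of the 23 S phase genes, 14 held CCAAT (60.9%), 4 a CHR (17.4%) and 6 an E2F motif (26.1%). A match is a description of letters and not a bound site. Of the 26 HSC markers with a promoter, 12 held CCAAT (46.2%), 1 a CHR (3.85%) and 1 an E2F motif. Of the 396 genes with a promoter that were lower in GFP4 at an unadjusted p under 0.05 in limma, 40.7% held CCAAT and 16.2% a CHR, near the shares of all genes, and 5.05% an E2F motif.

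The sort was checked on the genes of the gate. Kit, the receptor of stem cell factor, averaged 9.73 in GFP3 and 9.15 in GFP4 on the log2 scale, and Ptprc (CD45) averaged 12.16 and 11.80. The lineage genes Cd3e, Cd8a, Cd79a, Ms4a1 and Itgam had group means between 4.97 and 7.63 and Cd4 means of 8.29 and 8.48, without detection calls that would set them against background. Ly6a (Sca1) was not analysed here, since no gene of that symbol was matched.

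The 2 GFP3 arrays correlated with r = 0.990 over all genes. The 6 pairs of GFP4 arrays had r between 0.928 and 0.981, and the 8 pairs across the groups between 0.947 and 0.990, so the GFP4 arrays differed among themselves as much as from GFP3. GFP4 replicate 1 had the narrowest interquartile range of the 6 arrays (2.21, the others 2.40 to 2.58), and GFP4 replicate 2 stood apart on the third principal component (a score of -68.7, next among GFP4 -2.13). Actb signal near its 3 prime end exceeded that near its 5 prime end, a measure that grows as RNA degrades, by 4.20 and 4.01 in GFP3 and 4.88, 4.63, 3.99 and 5.05 in GFP4 replicates 1 to 4. The same measure of Gapdh ran the other way, with 6.58 and 6.09 in GFP3 and 5.69, 5.29, 5.64 and 6.57 in GFP4, where replicate 4 alone lay within the GFP3 range.

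No gene passed the test of GFP4 against GFP3 in limma after Benjamini-Hochberg adjustment (0 of 18194, 0%), and the smallest adjusted p was 0.321, for Cdt1. At an unadjusted p under 0.05 there were 716 genes (3.94%), a smaller share than the 5% that this threshold takes when no gene differs: 225 higher (1.24%) and 491 lower (2.70%) in GFP4. With cyclic loess between the arrays 302 were higher and 432 lower. These genes are described by their values below, not called. The count of higher genes was 117 and 56 when GFP3 replicate 1 or 2 was left out and 358 without GFP4 replicate 3, and that of lower genes 274 and 121 without GFP3 replicates 1 and 2. The 95% interval of a difference reached a median of 0.57 to either side, where a difference of 1 is a factor of 2. The median difference was 0.05 over all genes, 0.15 in genes whose brighter group mean lay under the median of the table and -0.04 in the brighter ones. Differences of at least 1 upwards were seen in 37 genes and of at least 1 downwards in 198.

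**Figure D1:**
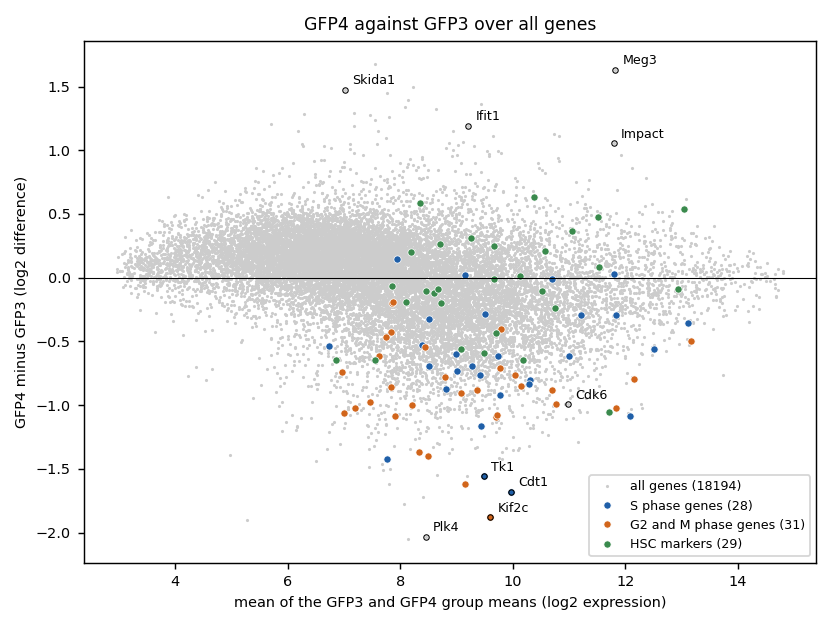
Difference between GFP4 and GFP3 (log2) against the mean of the 2 group means (log2 expression), 1 point per gene, for 18194 genes, with the S phase genes, G2 and M phase genes and HSC markers coloured. Most points of both cell cycle lists lie under 0, with Cdt1 at -1.68 and Kif2c at -1.88, while the HSC markers lie on both sides, from -1.06 to 0.63.

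Genes of DNA replication had lower values in GFP4, led by the licensing factor Cdt1, which loads the MCM helicase onto replication origins. Cdt1 read 10.77 and 10.86 in the GFP3 arrays and 9.48, 8.81, 9.45 and 8.80 in GFP4 replicates 1 to 4. All 4 GFP4 arrays lay at least 1 below both GFP3 arrays, and the difference was -1.68 ± 0.25 (SE; limma adjusted p = 0.321, 95% interval -2.23 to -1.13). GFP3 still read like the levels below it, whose means were 11.20, 11.09 and 11.01 in GFP0, GFP1 and GFP2. Of its 3 probe sets the next differed by -1.24, and the dimmest, with 4.31 and 4.33 in GFP3, by 0.05.

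The nucleotide and fork genes around it had the same sign. Tk1, the thymidine kinase of the salvage pathway, read 10.48 and 10.05 in GFP3 and 8.54, 8.92, 9.22 and 8.16 in GFP4 (-1.56 ± 0.39, SE). Lig1, the ligase that joins Okazaki fragments, read 10.71 and 10.67 in GFP3 against 9.50, 8.88, 9.73 and 9.23 in GFP4 (-1.35 ± 0.30, SE). Neither gene had a GFP4 array as high as either GFP3 array. Cdca7, an E2F target whose promoter is printed above, read 10.67 and 10.25 in GFP3 and 8.61, 9.52, 9.36 and 8.68 in GFP4 (-1.42 ± 0.30, SE). Rfc5, a subunit of the clamp loader, went from 10.43 and 10.05 to 9.36, 9.54, 9.06 and 9.33 (-0.92 ± 0.27, SE), and Rrm1, the large subunit of ribonucleotide reductase, from 10.84 and 10.60 to 9.54, 10.37, 9.99 and 9.76 (-0.80 ± 0.28, SE). The groups did not overlap for these 3 genes either. Of 3 Rrm1 probe sets 1 had the opposite sign, at 0.17, and the mean over its probe sets differed by -0.33.

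Of 28 measured S phase genes (30 listed), 10 were lower at an unadjusted p under 0.05, 0 higher and 18 neither, beside 2.70% lower over all genes. For 12 of the 28 the GFP4 and GFP3 arrays did not overlap and GFP4 was lower, beside 8.18% of all genes, and 25 of 28 differences were below 0, beside 43.2%. The median difference was -0.62, against 0.05 for all genes. The 10 were Cdt1, Tk1, Rfc5, Rrm1, Mcm3, Rrm2, Pola1, Dscc1, Fen1 and Pcna. Pcna, the sliding clamp of the replication fork, read 12.69 and 12.56 in GFP3 and 11.57, 11.88, 12.09 and 10.63 in GFP4 (-1.08 ± 0.47, SE), with replicate 4 the lowest. Dscc1, of the alternative clamp loader, differed by -1.42 ± 0.60, Pola1, the catalytic subunit of polymerase alpha, by -0.88 ± 0.36, Rrm2, the small subunit of ribonucleotide reductase, by -1.17 ± 0.47 and the flap nuclease Fen1 by -0.56 ± 0.24 (SE). The MCM helicase itself was uneven: Mcm3 differed by -0.69 ± 0.26 (SE) and Mcm2 by -0.61, but Mcm7 by -0.36, Mcm5 by -0.30, Mcm4 by -0.29 and Mcm6 by 0.03. A dimmer probe set of Mcm2 differed by -1.86. Cdc6, the partner of Cdt1 in licensing, had values of 8.31, 10.27, 8.28 and 6.57 in GFP4, on both sides of 8.90 and 8.47 in GFP3. The count of 10 was 2 and 6 when GFP3 replicate 1 or 2 was left out and 5 without GFP4 replicate 1, while the median stayed between -0.47 and -0.74 when any 1 of the 6 arrays was left out.

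**Figure D2:**
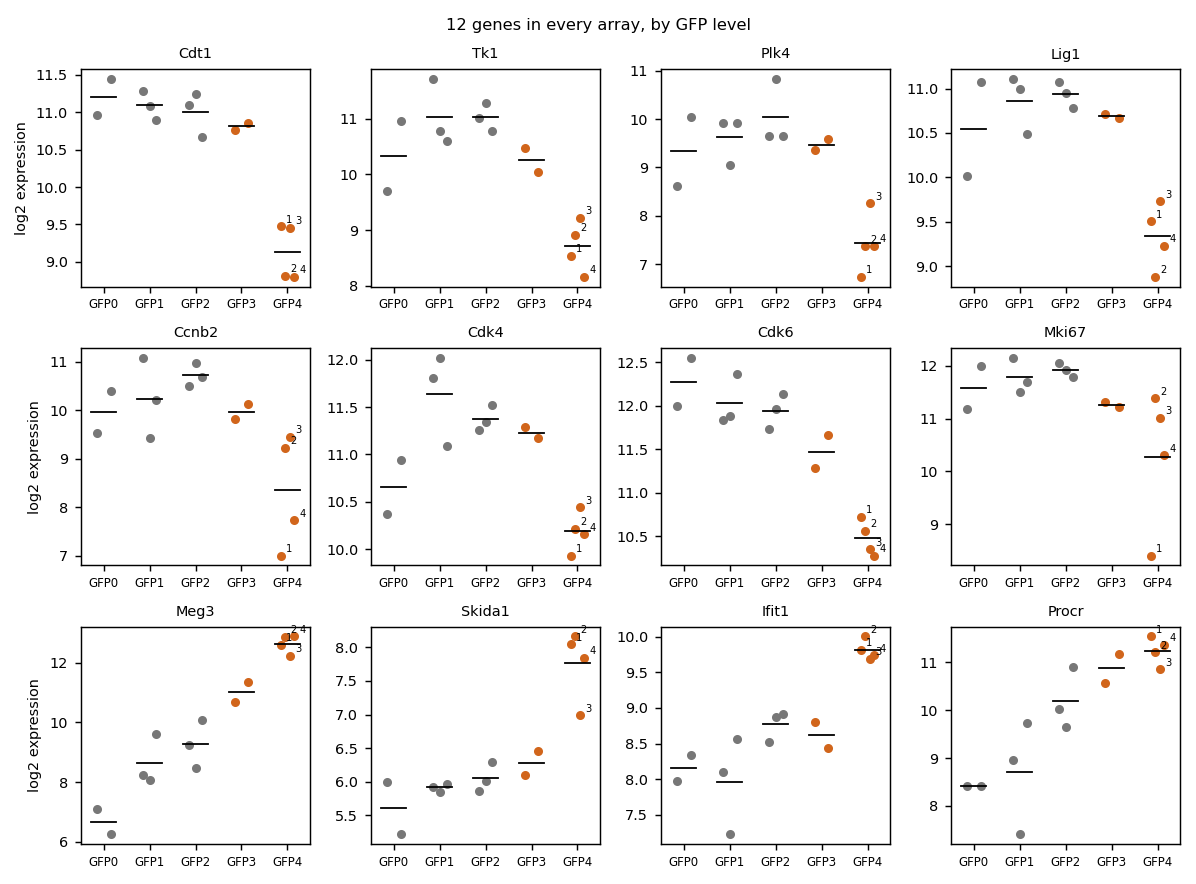
Log2 expression of 12 genes in each of the 14 arrays by GFP level, with group means as bars and GFP3 and GFP4 in orange. GFP4 arrays carry their replicate number; each panel has its own scale. Cdt1, Tk1, Plk4 and Lig1 read lower in all GFP4 arrays than in GFP3, the 4 GFP4 values of Mki67 spread from 8.40 to 11.39, and Procr overlaps between the 2 levels.

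Mitotic genes were lower in GFP4 as a list, with a wide spread between its arrays. Plk4, the kinase that starts centriole duplication and a member of neither cell cycle list, had the lowest difference of the genes that met the naming conditions and read 9.36 and 9.58 in GFP3 and 6.74, 7.37, 8.26 and 7.38 in GFP4 (-2.03 ± 0.48, SE; its other 2 probe sets -0.56 and -0.93). Aurkb, the kinase of the chromosomal passenger complex, read 7.20 and 7.88 in GFP3 and 6.96, 6.46, 6.47 and 6.02 in GFP4 (-1.06 ± 0.34, SE). Its 4 GFP4 values were all below the 2 of GFP3. Ccnb2, cyclin B2, read 9.82 and 10.12 in GFP3, and 7.01, 9.23, 9.45 and 7.73 in GFP4 (-1.62 ± 0.61, SE), so that replicates 1 and 4 lay far below replicates 2 and 3. Nusap1 and Tpx2, which organise spindle microtubules, differed by -1.40 ± 0.46 and -1.37 ± 0.49 (SE), and Ccna2, cyclin A2, by -1.09 ± 0.41 (SE). Of 4 Tpx2 probe sets 2 had the opposite sign, the highest at 0.28, and the mean over its probe sets differed by -0.39. Kif2c, a kinesin that removes microtubule ends and was picked after its value was seen, had the lowest difference of the list, -1.88 ± 0.72 (SE), with GFP4 values of 6.48, 9.44, 9.83 and 8.89 against 10.87 and 10.21 in GFP3. Among the rest of the 10 counted next, Aurka, the spindle pole kinase, had GFP3 arrays at 8.67 and 8.77 and GFP4 arrays at 7.28, 7.91, 8.02 and 7.65, Cdk1, the kinase that drives mitosis, differed by -1.08 ± 0.46, Cks2, its small partner, by -0.79 ± 0.35 and Plk1, the polo kinase of mitotic entry, by -0.55 ± 0.23 (SE).

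Of 31 measured G2 and M phase genes (32 listed), 10 were lower at an unadjusted p under 0.05, 0 higher and 21 neither. All 31 differences were below 0, with a median of -0.88 (all genes 0.05), and 12 genes did not overlap, beside 2.70% and 8.18% of all genes. The count of 10 was 2 without either GFP3 array, 6 without GFP4 replicate 1 and 23 without GFP4 replicate 2, and the median ran from -0.51 without GFP4 replicate 1 to -1.15 without GFP4 replicate 2. Mki67, the classical marker of cycling cells, read 11.31 and 11.22 in GFP3 and 8.40, 11.39, 11.02 and 10.30 in GFP4. One GFP4 array was above both GFP3 arrays and another far below them, and the difference of -0.99 ± 0.60 (SE) had an interval of -2.28 to 0.31.

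The mean of the 31 genes was 9.57 and 9.41 in the GFP3 arrays and 7.68, 9.39, 9.01 and 8.37 in GFP4 replicates 1 to 4, and the mean of the 28 S phase genes was 10.30 and 10.01 in GFP3 and 9.35, 9.87, 9.78 and 9.04 in GFP4. Every GFP4 mean lay below both GFP3 means, for the mitotic list only barely in replicate 2. Over the 59 genes of both lists, the lowest of the 6 arrays was GFP4 replicate 1 for 32 genes, replicate 4 for 21, replicate 2 for 4, replicate 3 for 2 and a GFP3 array for 0. Replicate 1 is the array with the narrow interquartile range and replicate 2 that with the most myeloid transcripts, described below; the part of either in the cell cycle values was not tested beyond leaving them out. Without both, the medians were -0.59 for S phase and -0.78 for G2 and M phase, with 11 genes lower in each list.

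**Figure D3:**
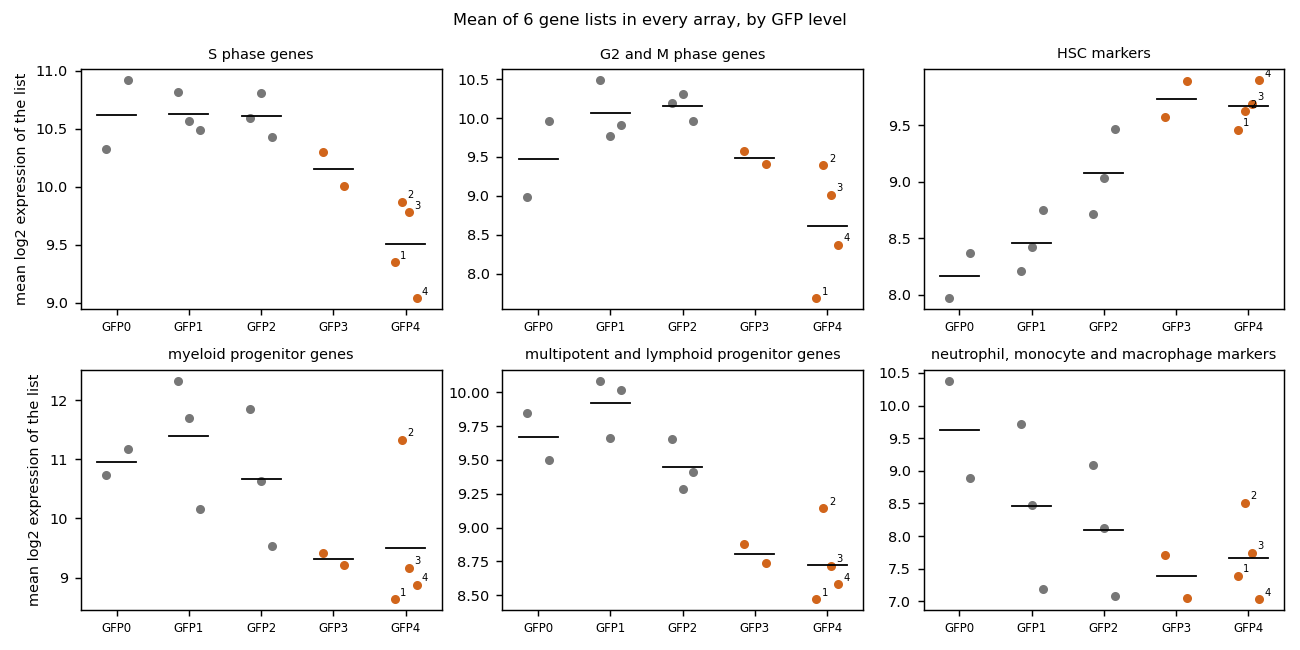
Mean log2 expression of 6 gene lists in each of the 14 arrays by GFP level, with group means as bars, GFP3 and GFP4 in orange and GFP4 arrays numbered. Both cell cycle lists are lower in all 4 GFP4 arrays than in GFP3, the HSC marker means of GFP3 and GFP4 overlap, and GFP4 replicate 2 is alone at 11.3 in the myeloid progenitor genes.

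The kinases that start a cycle also had lower values in GFP4. Cdk4 read 11.29 and 11.18 in GFP3 and 9.93, 10.22, 10.44 and 10.16 in GFP4 (-1.05 ± 0.26, SE). The GFP4 arrays lay close together and all below GFP3. Cdk6 read 11.28 and 11.66 in GFP3 and 10.73, 10.57, 10.35 and 10.28 in GFP4 (-0.99 ± 0.23, SE), again without overlap; a second bright probe set differed by -0.91 and a dim one by 0.13. Ccne2, cyclin E2, differed by -1.39 ± 0.41 (SE) at dim values, with means of 5.67 and 4.28. Cdk2, the kinase that cyclin E activates, differed by -0.80 ± 0.36 (SE, its other probe set 0.13). These 4 of 27 G1 regulators and inhibitors were lower at an unadjusted p under 0.05, beside 2.70% of all genes, 0 were higher and the median was -0.15. The count was 3 or 4 when any 1 array was left out. The cyclins D differed little, Ccnd1 by -0.00, Ccnd2 by 0.12 and Ccnd3 by -0.01.

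Of the inhibitors of the cycle, Cdkn1a, Cdkn1b and Cdkn1c overlapped between the groups. Cdkn1c (p57), the inhibitor long tied to HSC quiescence, read 9.18 and 9.98 in GFP3 and 9.21, 9.35, 10.40 and 10.20 in GFP4, with a difference of 0.21 ± 0.36 (SE) and an interval of -0.57 to 0.99. The 2 lowest GFP4 arrays fell within the GFP3 range and the 2 highest above it. Cdkn1a (p21) differed by -0.21 ± 0.24 and Cdkn1b (p27) by 0.07 ± 0.30 (SE). Of 21 quiescence and Foxo genes 0 had an unadjusted p under 0.05 in either direction, beside 3.94% of all genes, and 0 did not overlap, beside 12.3% higher and 8.18% lower. Their median was 0.07, and Foxo3, a factor that keeps HSCs quiescent, differed by 0.25 ± 0.32 (SE).

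Genes of DNA repair and of growth had lower medians. Of 22 DNA repair genes 4 were lower at an unadjusted p under 0.05, beside 2.70% of all genes. They were Rad51ap1 (-1.14 ± 0.42, SE), Rad54l (-1.11 ± 0.43, SE) and Brca2 (-0.77 ± 0.35, SE) of homologous recombination, and the checkpoint kinase Chek2 (-0.59 ± 0.23, SE). Rad51ap1 and Rad54l each had 1 of 4 probe sets with the opposite sign, at 0.23 and 0.14. With the brightest probe set taken over the 6 arrays, Rad54l differed by -0.42. The list median was -0.35, and the count was 0 and 1 without GFP3 replicates 1 and 2. The list of ribosome biogenesis and Myc-linked genes stood at a median of -0.46. Of its 22 members 2 were lower at an unadjusted p under 0.05, beside 2.70% of all genes. They were Bop1 and Nop16, both of large subunit assembly (-0.69 ± 0.28 and -0.79 ± 0.35, SE), and the other Nop16 probe set differed by 0.05. That count of 2 was 0 without either GFP3 array or GFP4 replicate 2, 1 without GFP4 replicate 1 or 4 and 5 without GFP4 replicate 3. Mycn, the Myc relative of HSCs, read 10.24 and 10.08 in GFP3 and 9.49, 9.81, 9.97 and 9.46 in GFP4 (-0.48 ± 0.36, SE). Its GFP4 mean thus lay between the GFP3 mean and the GFP2 mean of 9.44.

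Genes of energy metabolism gave a few lower members. Pkm, pyruvate kinase, read 10.54 and 11.15 in GFP3 and 10.24, 9.61, 10.10 and 9.56 in GFP4 (-0.97 ± 0.30, SE), and Pfkp, a phosphofructokinase, differed by -0.79 ± 0.36 (SE). Of 3 Pfkp probe sets 1 had the opposite sign, at 0.29. The groups did not overlap for Pkm or Pfkp. They were the 2 of 21 glycolysis and hypoxia genes at an unadjusted p under 0.05 (median -0.25), beside 2.70% lower over all genes, and the count was 0 without GFP3 replicate 2, 1 without GFP4 replicate 2 or 4 and 4 without GFP4 replicate 1. Of 20 oxidative phosphorylation genes, Ndufa9 of complex I (-0.77 ± 0.25, SE) and Atp5b of the ATP synthase (-1.06 ± 0.45, SE) were lower, beside that same 2.70%, with a median of -0.12 and 1 gene left without GFP3 replicate 2 or GFP4 replicate 1 or 2. Ldha, which turns pyruvate into lactate, differed by -0.37 ± 0.25 and Hif1a by -0.08 ± 0.24 (SE).

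**Figure D4:**
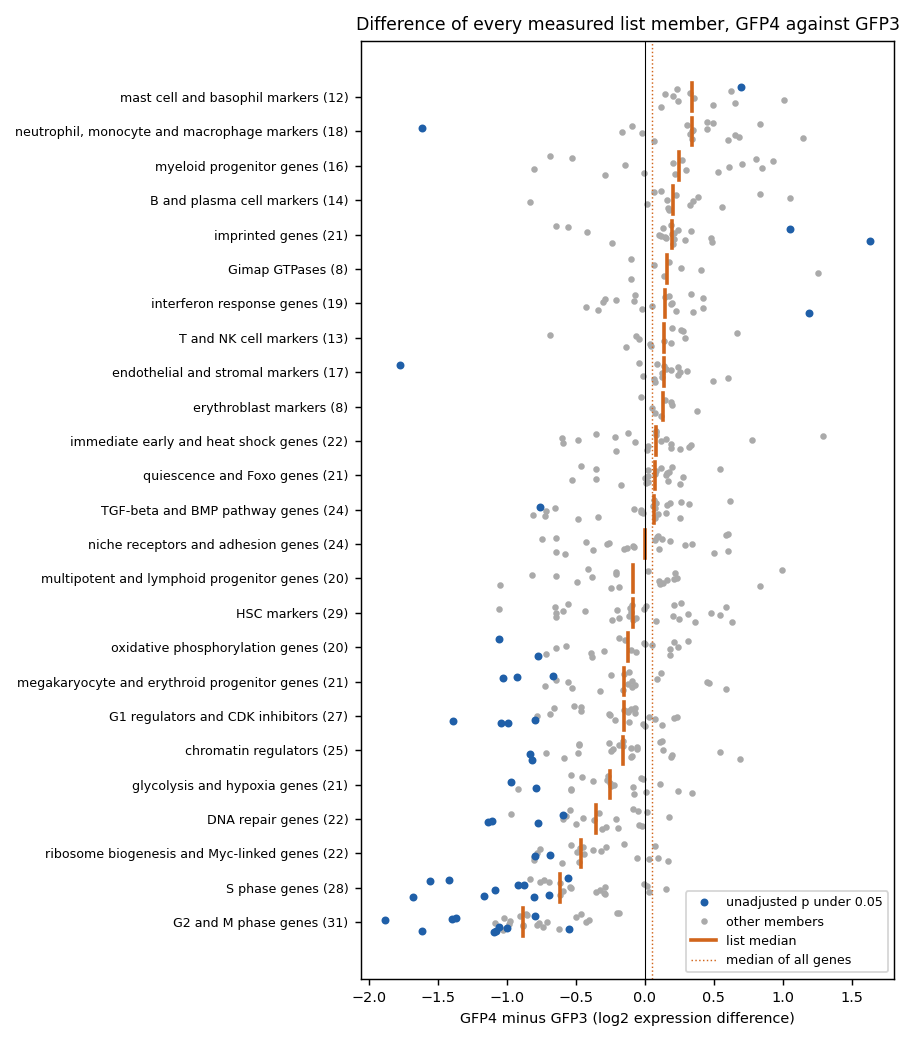
Difference between GFP4 and GFP3 (log2) for each measured member of 25 gene lists, with the number of members in brackets, list medians as orange bars and the median of all genes as a dotted line. Blue points have an unadjusted p under 0.05. The G2 and M phase genes (median -0.88), S phase genes (-0.62) and ribosome biogenesis genes (-0.46) lie lowest, and lists of other cell types lie to the right of 0.

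HSC markers had differences on both sides of 0 in this step. Procr, the protein C receptor on HSCs, read 10.57 and 11.18 in GFP3 and 11.54, 11.21, 10.86 and 11.37 in GFP4 (0.37 ± 0.50, SE). Hlf, a transcription factor of HSCs, read 11.38 and 11.60 in GFP3 and 11.08, 11.74, 11.35 and 12.11 in GFP4 (0.08 ± 0.43, SE). The groups overlapped in both genes. Mecom, a regulator of HSC self-renewal, differed by -0.24 ± 0.49 and Hoxb5 by -0.19 ± 0.39 (SE), Fgd5 by 0.25 ± 0.38 and Slamf1 (CD150) by 0.20 ± 0.20 (SE). Of 3 Mecom probe sets 2 had the opposite sign, the highest at 0.23. Slamf1 and Hlf each had 1 probe set of the opposite sign, at -0.53 and -0.11. Meis1 differed by -0.09, but 1 of its 3 probe sets differed by 1.57, with an unadjusted p under 0.05 in limma. Vwf, which marks platelet-biased HSCs, read 8.06 and 9.25 in GFP3 and 9.29, 7.07, 8.62 and 9.19 in GFP4 (-0.12 ± 0.76, SE), with replicate 2 the lowest of the 6.

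Of 29 measured HSC markers (32 listed), 0 were higher and 0 lower at an unadjusted p under 0.05 in limma, beside 1.24% and 2.70% of all genes. For this list 12 differences were above 0 and 17 below, and the median was -0.09. The step before, from GFP2 to GFP3, had a median of 0.69 for the same list with 9 members higher and 0 lower at an unadjusted p under 0.05, beside 0.791% higher over all genes; it shares the GFP3 arrays. The tests of the difference between the 2 steps put 1 marker past an unadjusted p of 0.05, lower in the last step, and none past adjustment. Against the step from GFP1 to GFP2, 5 markers were past that p, all lower in the last step, beside 3.58% of all genes. The 95% interval left out a rise of 1 for 16 markers and a decline of 1 for 16, and lay wholly between for 6, so changes of that size remain within the intervals of many. Mllt3, a factor that maintains HSCs, had the highest difference of the list, with 9.90 and 10.22 in GFP3 and 10.25, 11.08, 10.45 and 10.99 in GFP4 (0.63 ± 0.32, SE; limma adjusted p = 0.888). Its GFP4 arrays were all above GFP3. The 3 Mllt3 probe sets had the same sign, from 0.59 to 1.13, and 1 had an unadjusted p under 0.05 in limma. Myct1 had the lowest difference, with 12.05 and 12.44 in GFP3 and 11.15, 9.94, 11.68 and 11.98 in GFP4 (-1.06 ± 0.76, SE), and did not overlap. Esam, an adhesion molecule of HSCs, had lower values in all 4 GFP4 arrays (-0.65 ± 0.32, SE), and Tek, the angiopoietin receptor, differed by -0.64 ± 0.45 (SE). The list median was -0.23 without GFP3 replicate 1 and 0.11 without GFP3 replicate 2, and between -0.17 and 0.03 without any 1 GFP4 array. The count of lower markers was 2 without GFP3 replicate 1 or GFP4 replicate 4, and that of higher markers was 2 without GFP4 replicate 1 and 1 without GFP3 replicate 2, GFP4 replicate 2 or GFP4 replicate 3. Under other settings, 4 were higher and 2 lower with array weights, 3 higher with cyclic loess or with every probe set by itself, 2 higher with quantile normalization or the RNA quality covariate, and 5 lower with the replicate number as a block.

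Genes of multipotent and lymphoid progenitors also had differences on both sides of 0. Their median was -0.08 for 20 genes, with 0 past an unadjusted p of 0.05 either way, beside 3.94% of all genes. From GFP2 to GFP3 it had been -0.57 with 6 lower, beside 0.566% of all genes. Without GFP4 replicate 2 the median of the last step was -0.16 with 2 lower, and without GFP4 replicate 1 or 4 it was 0.01 and 0.02. Without GFP4 replicate 3 there was 1 in each direction. Cd48, absent from the surface of HSCs, had means of 9.50 in GFP2 and 6.93 in GFP3, and GFP4 arrays at 5.31, 8.42, 7.07 and 5.93 (-0.25 ± 0.66, SE). Replicate 2 was the highest of these and above both GFP3 arrays. Cd34, of which long-term HSCs of adult mice carry little, read 10.73 and 11.20 in GFP3 and 9.73, 10.69, 10.04 and 10.13 in GFP4 (-0.82 ± 0.38, SE), all 4 below GFP3. This is the mouse gene, read apart from the human promoter that drives the label. Dntt, the terminal transferase of lymphoid cells, differed by -1.05 ± 0.51 (SE), with replicate 2 at 12.38 and the other GFP4 arrays between 9.90 and 10.22. Flt3, a receptor of multipotent progenitors, differed by -0.19 ± 0.34 (SE).

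Myeloid progenitor genes differed most in 1 array. Mpo, the peroxidase of neutrophil granules, read 10.48 and 10.07 in GFP3 and 7.88, 13.29, 9.67 and 9.12 in GFP4. Replicate 2 was far above GFP3 and the other GFP4 arrays lay below it. Elane, neutrophil elastase, read 6.97, 11.17, 7.48 and 7.18 in GFP4 against 8.17 and 7.79 in GFP3. Over 16 such genes the list mean was 11.3 in GFP4 replicate 2 and 8.64 to 9.17 in the other GFP4 arrays, against 9.42 and 9.21 in GFP3. The median difference was 0.24 with all arrays and -0.21 without replicate 2. With all arrays 0 genes were past an unadjusted p of 0.05, beside 3.94% of all genes. At that threshold 3 were lower without replicate 2 and 1 without replicate 4. The list median of 21 megakaryocyte and erythroid progenitor genes was -0.15, and 3 were lower at an unadjusted p under 0.05, beside 2.70% of all genes. Rap1b, a GTPase of platelet integrin signalling, differed by -1.03 ± 0.42 (SE), with 1 of its 3 probe sets at 0.26. Selp, P-selectin, differed by -0.93 ± 0.40 and the tetraspanin Cd9 by -0.67 ± 0.31 (SE). Their count was 0 without GFP3 replicate 2 or GFP4 replicate 1, 1 without GFP3 replicate 1 and 2 without any other GFP4 array.

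At an unadjusted p under 0.05 fewer genes were higher (225) than lower (491) in GFP4. By non-overlap of the arrays as deposited the order was the other way, with 2229 genes higher (12.3%) and 1488 lower (8.18%). That order depended on the setting. With arrays centred on their medians 1585 were higher and 1816 lower. Among genes at or above the table median in GFP3 or GFP4, 1026 were higher and 1395 lower. Meg3, a maternally expressed noncoding RNA of the imprinted Dlk1 region, read 10.67 and 11.34 in GFP3 and 12.60, 12.86, 12.22 and 12.87 in GFP4 (1.63 ± 0.48, SE; limma adjusted p = 0.888). The GFP4 arrays were all above GFP3 and close together. It had also been higher in GFP3 than in GFP2, by 1.75. The probe set ends in _x_at, a kind that can cross-hybridise; of 11 Meg3 probe sets 10 had the same sign and 5 an unadjusted p under 0.05, the strongest at 2.25. Impact, an imprinted regulator of the translation kinase Gcn2, read 11.74 and 10.80 in GFP3 and 12.56, 12.43, 12.15 and 12.15 in GFP4 (1.05 ± 0.24, SE), but its 2 dimmer probe sets differed by -0.17 and 0.47.

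Of 21 imprinted genes these 2 were higher and 0 lower at an unadjusted p under 0.05, beside 1.24% higher over all genes, with a list median of 0.20. The count was 1 without GFP3 replicate 1 and 3 without GFP4 replicate 4. Dlk1, the protein-coding neighbour of Meg3, read 6.99 and 6.91 in GFP3 and 7.91, 7.38, 7.39 and 7.09 in GFP4, near the table median of 7.03 (0.49 ± 0.25, SE). Its GFP4 arrays lay above GFP3. Rian, another noncoding RNA of that region, differed by 0.29 ± 0.27, Igf2 by 0.21 ± 0.19 and Grb10 by 0.10 ± 0.22 (SE). Ndn, necdin, a growth suppressor expressed in HSCs, differed by 0.48 ± 0.32 (SE), with replicate 1 inside the GFP3 range.

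Skida1, a nuclear protein of the Ski and Dach family, read 6.11 and 6.46 in GFP3 and 8.05, 8.16, 6.99 and 7.84 in GFP4 (1.48 ± 0.31, SE; limma adjusted p = 0.888). Its means in GFP0, GFP1 and GFP2 were 5.61, 5.92 and 6.06, so only the GFP4 mean lay above the table median. Ifit1, an interferon-induced protein that binds viral RNA, read 8.80 and 8.43 in GFP3 and 9.81, 10.00, 9.68 and 9.73 in GFP4 (1.19 ± 0.30, SE), and the 4 GFP4 arrays lay close together above GFP3. The other interferon response genes did not pass that threshold: of 19 it was the 1 higher at an unadjusted p under 0.05, beside 1.24% of all genes, and the median was 0.15, with Ifit3 at 0.23 ± 0.23, Irf7 at -0.34 ± 0.26 and Mx1 at 0.19 ± 0.31 (SE). That median was 0.01 without GFP4 replicate 2.

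The other 9 genes with the highest differences under the naming conditions were Gm4274 (1.39), Clec4g (1.23), Wfdc18 (1.13), Rapgef3 (1.07), Dtnb (1.06), Cldn5 (1.05), Stambpl1 (1.03), Il6ra (1.02) and Dhdh (1.00). Rapgef3, Dtnb and Stambpl1 each had 1 probe set of the opposite sign, at -0.12, -0.0023 and -0.15. Clec4g encodes a lectin of liver endothelium and Cldn5 the tight junction protein of endothelial cells. Cldn5 read 7.24, 7.28, 8.91 and 9.04 in GFP4 against 7.02 and 7.13 in GFP3, with replicates 1 and 2 barely above GFP3. Il6ra, the receptor of interleukin 6, read 8.28 and 8.33 in GFP3 and 8.77, 9.98, 8.82 and 9.73 in GFP4, with replicates 2 and 4 the higher. Wfdc18 read 10.10 and 10.24 in GFP3 and 11.80, 10.95, 11.10 and 11.34 in GFP4, and none of these 3 genes overlapped between the groups. The conditions were an unadjusted p under 0.05, no overlap and a brighter group mean at or above the table median, and 106 genes met them upwards and 393 downwards.

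Downwards, after Plk4, these conditions gave Pdgfrb (-1.78 ± 0.53, SE), the platelet-derived growth factor receptor of mesenchymal cells, Uap1 (-1.72), Cdt1, Clec4d (-1.62 ± 0.46, SE), Ccnb2 and Tk1. Clec4d, a lectin receptor of myeloid cells, read 8.69 and 8.53 in GFP3 and 7.50, 6.35, 7.78 and 6.35 in GFP4 and had a mean of 11.04 in GFP0. Replicates 2 and 4 were alike and lowest, although replicate 2 had the highest mean of the myeloid lists. Pdgfrb read 8.82 and 9.08 in GFP3 and 8.04, 7.41, 6.78 and 6.46 in GFP4, and was the 1 of 17 endothelial and stromal markers at an unadjusted p under 0.05, beside 2.70% lower over all genes. Fignl1 (-1.51), Spsb4 (-1.48), Smim13 (-1.46), Mex3c (-1.44) and Fyttd1 (-1.42) completed the 12. Fignl1 takes part in homologous recombination. Fignl1, Mex3c and Fyttd1 each had 1 probe set of the opposite sign, at 0.19, 0.20 and 0.63.

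Among regulators of chromatin, Ezh2, the methyltransferase of Polycomb complex 2, read 10.48 and 10.19 in GFP3 and 9.61, 9.96, 9.32 and 9.11 in GFP4 (-0.84 ± 0.35, SE). Dnmt1, the maintenance DNA methyltransferase, which acts at replication forks, differed by -0.81 ± 0.35 (SE). Neither overlapped. They were the 2 of 25 at an unadjusted p under 0.05 (median -0.15), beside 2.70% lower over all genes, and 0 or 1 remained when any 1 array was left out. Smad6, an inhibitor of BMP signalling, was lower (-0.76 ± 0.22, SE) as the 1 of 24 TGF-beta and BMP pathway genes, a share near the 2.70% of all genes, in dim values; the count was 0 without GFP3 replicate 2 and 2 without GFP3 replicate 1, GFP4 replicate 3 or GFP4 replicate 4. Of 24 niche receptor and adhesion genes, 22 immediate early and heat shock genes and 8 Gimap GTPases, 0 had an unadjusted p under 0.05 in limma, beside 3.94% of all genes. Egr1, an immediate early gene that responds to handling, ran from 7.63 to 11.07 in GFP4 and was 9.96 and 8.32 in GFP3 (0.03 ± 0.81, SE). Gimap4, a GTPase of lymphoid cells, had higher values in all 4 GFP4 arrays (1.26 ± 0.65, SE).

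Markers of other cells were measured beside these lists. Of 12 mast cell and basophil markers, 12 differences were above 0 with a median of 0.34, and Il4 was the 1 higher at an unadjusted p under 0.05, beside 1.24% of all genes (0.70 ± 0.26, SE; it was not past that threshold without either GFP3 array). The list mean was 6.46 and 6.27 in GFP3 and 6.77, 7.39, 6.58 and 6.41 in GFP4. Both group means of 8 of the 12 lay under the table median, and all genes that dim had a median difference of 0.15. The protease Cpa3 read 6.38, 9.77, 6.67 and 6.44 in GFP4 against 7.05 and 7.35 in GFP3, so that replicate 2 stood apart. Of 18 neutrophil, monocyte and macrophage markers, Clec4d was the 1 lower at an unadjusted p under 0.05, beside 2.70% of all genes. The median was 0.34, or 0.12 without GFP4 replicate 2 or without GFP3 replicate 2. List means were 7.71 and 7.06 in GFP3 and 7.40, 8.51, 7.74 and 7.04 in GFP4. Chil3, of neutrophils and macrophages, read 13.00 in replicate 2 and 6.47 to 7.72 in the other GFP4 arrays. Of 14 B and plasma cell, 13 T and NK cell and 8 erythroblast markers, 0 had an unadjusted p under 0.05, beside 3.94% of all genes. Their medians were 0.20, 0.14 and 0.13. Of the B and plasma cell markers 13 of 14 differences were above 0 and 3 did not overlap upwards, and of the T and NK cell markers 4 did not overlap upwards, beside 12.3% of all genes. Both group means of 4 of the 14 B and plasma cell and 7 of the 13 T and NK cell markers lay under the table median. The part of such cells in the other results was not tested. Leaving out replicate 2 cannot test it for the cell cycle lists, since that array had their highest GFP4 means.

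Whether the last step differed from earlier ones was tested directly. Against the step from GFP2 to GFP3, which shares the GFP3 arrays, 0 genes passed in limma after adjustment (smallest adjusted p = 1.00), with 40 genes higher (0.220%) and 92 lower (0.506%) in the last step at an unadjusted p under 0.05. The smallest p downwards belonged to Marcksl1, an actin-binding substrate of protein kinase C, Crtap, of collagen modification, and Cd99, a surface glycoprotein. Marcksl1 had means of 9.66, 10.49 and 9.13 from GFP2 to GFP4, higher in GFP3 than on either side, and the steps differed by -2.20 ± 0.59 (SE). Crtap went from 8.93 to 9.70 and 8.66, and Cd99 from 9.33 to 9.94 and 8.91.

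Against the step from GFP1 to GFP2, which shares no array with it, 0 genes passed either (smallest adjusted p = 0.807 in limma), with 277 higher (1.52%) and 651 lower (3.58%) at an unadjusted p under 0.05. Cdt1 differed by -0.08 from GFP1 to GFP2 and by -1.68 in the last step (difference of steps -1.59 ± 0.35, SE), and Cdca7 by 0.25 and -1.42 (-1.67 ± 0.41, SE). Pgap4 had been higher in GFP2 than in GFP1 by 1.87 and was lower in GFP4 than in GFP3 by a difference of -0.75. In the other direction, Il7r, the interleukin 7 receptor, had differed by -1.73 and now read 6.55 and 6.12 in GFP3 and 7.60, 7.25, 6.39 and 7.45 in GFP4 (0.84 ± 0.43, SE). Sox12, a transcription factor, and Mamdc4 followed the same order, with -0.76 and -0.70 in the earlier step and 0.78 and 0.44 in the last. In the last step Il7r and Sox12 each had 1 probe set of the opposite sign, at -0.22 and -0.16. The S phase list had a median of -0.06 from GFP1 to GFP2, -0.43 from GFP2 to GFP3 and -0.62 from GFP3 to GFP4, and the G2 and M phase list 0.11, -0.72 and -0.88. Against the GFP1 to GFP2 step, 6 S phase and 4 G2 and M phase genes were past an unadjusted p of 0.05. All had the last step lower, beside 3.58% of all genes, and 1 and 0 were past it against the step just before. Other lists had such genes against the GFP1 to GFP2 step too, again with the last step lower. They were 5 of 29 HSC markers and 4 each of 22 DNA repair genes, 27 G1 regulators and inhibitors, and 24 niche receptor and adhesion genes.

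Genes chosen by the difference between GFP2 and GFP0 were followed through the last step. Their group means came from arrays outside that step. The p that chose them came from the limma fit of all arrays, so the spread within GFP3 and GFP4 also entered the choice. The 335 genes higher in GFP2 than in GFP0 at an unadjusted p under 0.01 had a median of -0.21 from GFP3 to GFP4, with 30 lower (8.96%, beside 2.70% of all genes) and 2 higher. The 420 genes lower in GFP2 had a median of 0.26, with 394 differences above 0 and 26 below, and 17 higher (4.05%, beside 1.24% of all genes) and 2 lower at an unadjusted p under 0.05. Over all genes 43.2% of differences were below 0. The signs of both medians were thus opposite to the direction in which the genes had been chosen. GFP0 replicate 1 had an interquartile range of 2.09 and an array median of 7.18, and GFP0 replicate 2 had 2.41 and 6.98. GFP4 replicate 1, also narrow, had 2.21 and 7.17. The part of these narrow ranges in the opposite signs was not tested. Brightness differed between them, since 69.8% of the second group and 6.87% of the first lay under the table median in both groups, beside 33.4% of all genes. Without GFP4 replicate 1 the medians were -0.09 and 0.11, without GFP3 replicate 2 they were -0.08 and 0.18, and without GFP4 replicates 1 and 2 they were -0.03 and 0.08.

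**Figure D5:**
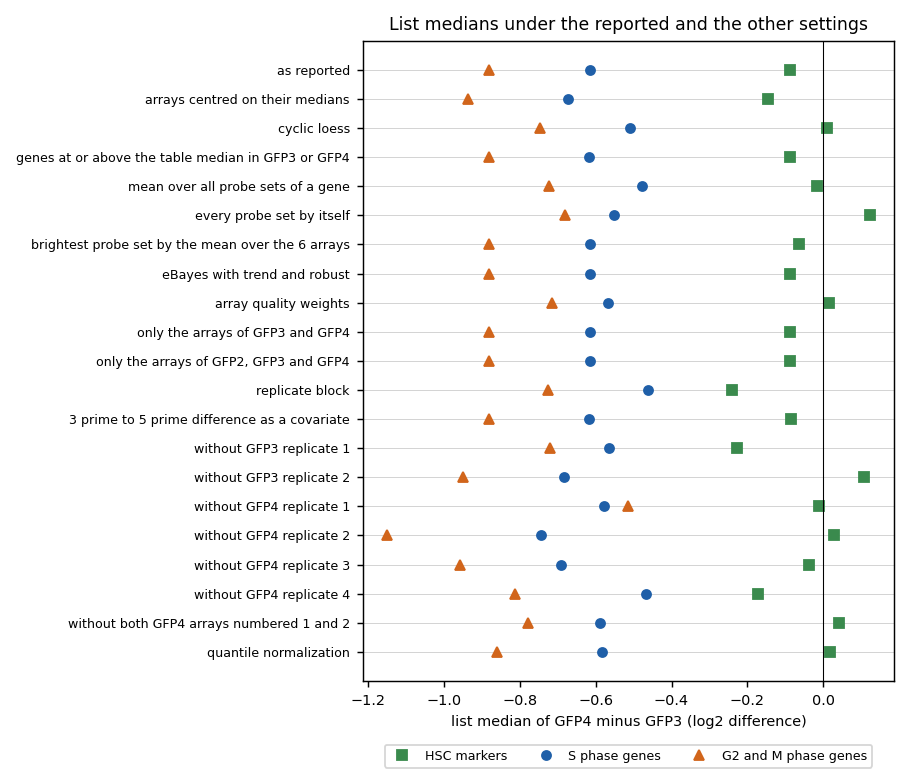
Median difference between GFP4 and GFP3 (log2) of HSC markers, S phase genes and G2 and M phase genes under the reported setting and 20 others, 1 row per setting. The S phase medians lie between -0.46 and -0.74 and the G2 and M phase medians between -0.51 and -1.15, while those of the HSC markers lie on both sides of 0.

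Across the 20 other settings shown in the plot of list medians, the adjusted count of genes was 0 in all but the fit with array quality weights, where 2 genes passed in limma, Cdt1 (adjusted p = 0.0197) and Itpa (-1.34, adjusted p = 0.0492). Itpa, a pyrophosphatase that clears deaminated nucleotides, was picked by that fit alone. Its arrays read 9.29 and 9.30 in GFP3 and 7.86, 8.42, 8.08 and 7.64 in GFP4. Those weights were 2.75 for each GFP3 array and 0.302, 0.482, 2.12 and 1.37 for GFP4 replicates 1 to 4.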

How the data were processed

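Per the labels and the submitters' processing notes, RNA of sorted LSK cells was read on 1-colour Affymetrix arrays, and the deposited values are log2 expression made by the authors with GCOS, RMA and affy; versions and genome build are not given in the sources used here. RMA normalizes arrays together and keeps no detection calls, so a dim value has no known background, and how few arrays there are limits the precision. Of 45101 probe sets, 34958 had 1 gene symbol in GEO's platform table, 932 several and 9211 none; each of 18194 symbols took its probe set with the highest mean over all arrays, and 204 named probe sets were not matched to a RefSeq gene.

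Group means of all 14 arrays were fitted in limma 3.58.1 (R 4.3.3), with eBayes and Benjamini-Hochberg adjustment over all genes, and GFP4 minus GFP3 was the contrast, tested on simulated data first. The labels' replicate numbers were not used as a block. Unadjusted p values at 0.05 only describe. Named genes were the 12 highest and 12 lowest differences that met the conditions in the text (leaving out probe sets ending in _x_at), the 5 smallest p, up to 4 members per list, up to 3 genes each way per difference of steps (unadjusted p under 0.01) and genes fixed by name; other list members named were picked after their values were seen. Ly6a, also fixed by name, was not matched. The lists hold 555 entries in 26 lists, and the comparison, members and lists were chosen with earlier results of these data known. Other settings varied the normalization, dim genes, probe sets, variance model, weights, arrays, block and RNA quality, 20 in all; quantile normalization was added after seeing the data. Figures used matplotlib 3.10.9.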

Additional observations from a re-analysis of the deposited data

Results flagged for a closer look

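Among 115 measures checked in the 4 GFP4 arrays, 7 (6.09%) had an array whose gap to the nearest other array passed Dixon's 95% limit, which chance passes in about 5% of such groups. Replicate 2 was the array that stood apart in 6 of them. Its Brca2 value was 8.60, with the next array at 9.69. Foxo3 read 9.60 in that array, and 10.20 in the next. Stambpl1, a deubiquitinase relative, read 10.76 there and 9.65 in the next. The mean of the imprinted genes was 8.11 against 8.36, and that of the glycolysis and hypoxia genes 9.39 against 9.64. On the third principal component its score was -68.7, and the next was -2.13. Cd99 stood apart in replicate 3, at 9.36 with the next array at 8.79.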

How the results depend on the processing

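The number of genes past an adjusted p of 0.05 in limma was 0 under 19 of 20 other settings and 2 with array quality weights, where Cdt1 differed by -1.64. Genes higher at an unadjusted p under 0.05 numbered 225 as reported, 107 without dim genes, 739 with every probe set by itself, 824 with array weights, 117 without both GFP4 replicates 1 and 2, and 56 to 358 with 1 array left out. Genes lower numbered 491 as reported, 1049 with every probe set, 1130 with array weights, 752 with the arrays of GFP2 to GFP4, 266 without both arrays, and 121 to 720 with 1 array left out. The median of HSC markers was 0.12 with every probe set and -0.23 to 0.11 with 1 array left out, and that of the genes higher in GFP2 than in GFP0 was -0.34 to -0.08.

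GFP3 and GFP4 share replicate numbers 1 and 2. Deviations of same-numbered arrays correlated at 0.056 and -0.11. With 2 GFP3 arrays their deviations are mirror images, so these values cannot tell whether same-numbered arrays share more than a number. With the replicate block, 888 genes were higher and 1105 lower, and the GFP2 median was -0.42. The block turned the sign of Cd48 (0.087), Cdkn1c (-0.10), Fgd5 (-0.047) and Hlf (-0.20).

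Of 82 named genes 12 changed sign in some setting, in 40 of 1637 values; the cause was not tested. Ccnd1 was 0.12 with cyclic loess, 0.016 over all probe sets, 0.15 with weights, 0.00021 with the RNA quality covariate, 0.22 without both arrays and 0.11 with quantile normalization. Egr1 was -0.030 centred, -0.082 with weights and -0.15 without both arrays. Without both, Flt3 was 0.076, Mecom 0.14 and Vwf 0.25, and Vwf was 0.016 with weights and 0.012 with quantile normalization. Over all probe sets Hlf was -0.015, Mecom 0.057, Meis1 0.31 and Slamf1 -0.032, and Meis1 was 0.011 with cyclic loess. With 1 array left out, Ccnd1 ran from -0.31 to 0.31, Cd48 from -0.83 to 0.21, Cdkn1c from -0.19 to 0.61, Egr1 from -0.80 to 0.85, Fgd5 from -0.044 to 0.54, Flt3 from -0.40 to 0.0017, Hlf from -0.10 to 0.25, Hoxb5 from -0.41 to 0.033, Meis1 from -0.30 to 0.13 and Vwf from -0.71 to 0.48. Neither difference of steps had a gene past adjustment in limma in any setting run, while the 6 arrays alone cannot give them, nor the arrays of GFP2 to GFP4 the one with GFP1 or the lists from GFP0. With 2 GFP3 arrays, leaving 1 out assumes that the other varies like the remaining groups.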
